A study of Mus musculus with 10 samples.

Results

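The p53 pathway was followed through 10 genes: Trp53 itself, its inhibitors Mdm2 and Mdm4, and the direct targets Trp53inp1, Ccng1, Zmat3, Sesn1, Sesn2, Aen and Phlda3. They were found by gene symbol among the 52550 genes of the deposited count table, and all 10 reached 10 counts in total, so all 10 were measured. The question was whether the rise of Trp53inp1 when miR-139 is induced belongs to a general p53 response or is selective.

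The cells were hematopoietic stem and progenitor cells (HSPCs) from bone marrow of wild-type C57BL/6 mice of 8 to 20 weeks. They were transformed with the retroviral fusion oncogene MLL-AF9, a driver of acute myeloid leukemia, and were cultured with SCF, GM-CSF and the interleukins IL-3 and IL-6. MLL-AF9-i139 cells also carry the repressor tetR-KRAB and the vector pCW-miR-139, from which doxycycline (DOX) induces miR-139. Each of 3 clones, grown from picked colonies, was sequenced once with DOX (5 µg/mL) and once without. MLL-AF9-ieGFP cells express eGFP with DOX in place of miR-139 and came from 1 clone, of which DOX-treated and untreated cultures were sequenced after 48 h and 72 h, which gives 10 libraries in all. DOX was given for 48 h to clones 1 and 2 and for 72 h to clone 3, so that in MLL-AF9-i139 the longer treatment and clone 3 cannot be told apart. The labels give no culture time for the untreated MLL-AF9-i139 libraries. The files hold no measure of p53 protein or DNA damage. The induction itself could not be checked in these counts, since the gene Mir139, which lies within Pde2a, had 0 counts in 10 of 10 libraries and mature miRNAs are too short for these libraries.

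p53 is a transcription factor that is held at a low level by Mdm2, the ubiquitin ligase that marks it for degradation, and is held inactive by the related protein Mdm4. After stress p53 is released from both and switches on genes for cell cycle arrest, DNA repair, metabolism and apoptosis, among them Mdm2, which closes a negative feedback loop. Because p53 is controlled largely as a protein, its activity is often read from the mRNAs of its targets rather than from Trp53 mRNA. In myeloid leukemia p53 restrains cells that carry an activated oncogene, and many leukemias with an MLL fusion keep the gene intact.

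The sequences on which the design rests are the 2 mature strands of miR-139, printed with bases 2 to 8, the seed that pairs with target mRNAs, in capitals. They come from RefSeq on GRCm38.p6. miR-139-5p is encoded at chr7:101475382-101475403 and miR-139-3p at chr7:101475418-101475439, both on the plus strand.
miR-139-5p: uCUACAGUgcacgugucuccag
miR-139-3p: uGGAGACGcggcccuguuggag

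Seed matches were then searched in the longest annotated 3′ UTR of each gene on GRCm38. A match was ACTGTAG (pairing with bases 2 to 8) or CTGTAGA (bases 2 to 7 and a following A) for miR-139-5p, and CGTCTCC or GTCTCCA for miR-139-3p, on the transcribed strand only. Of 13995 genes 21.7% held a match for miR-139-5p and 15.9% for miR-139-3p. Among the 10 p53 genes, Trp53inp1 held 2 matches for miR-139-5p, Zmat3 held 3, and Mdm2 and Ccng1 held 1 each. For miR-139-3p, Mdm4 held 2 matches, and Aen and Ccng1 held 1 each. Trp53, Sesn1, Sesn2 and Phlda3 held no match of these letters. The 3′ UTRs of Trp53inp1 and Zmat3 have 4420 and 6692 bases, and the shares over all genes were not matched for UTR length. The 2 Trp53inp1 sites, at chr4:11171771-11171798 and chr4:11172538-11172565 on the plus strand, and the first Zmat3 site, at chr3:32337062-32337089 on the minus strand, are shown with the match in capitals. These genes carry miR-139-5p matches and passed as higher with DOX in the test that compares each clone with itself. Mdm2 and Ccng1, with 1 miR-139-5p match each, did not pass that test.
Trp53inp1 site 1: aggggccaagtCTGTAGAgtttgttaaa
Trp53inp1 site 2: ccatccccagcACTGTAGgatgaaaaca
Zmat3 site 1: gcttggttcttCTGTAGAgtggagagaa
A match is a description of the sequence and not a measured site.

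Total counts per library ran from 35133308 to 47089725. Values are given as normalised read counts, that is CPM, the counts scaled to a common library size, after TMM scaling over the 10 libraries. Of 19223 genes tested in the 6 MLL-AF9-i139 libraries, edgeR's quasi-likelihood test without a clone term called 12 genes (0.0624%) at an adjusted p under 0.05, and 3959 (20.6%) had an unadjusted p under 0.05. With the clone as a block, which compares each clone with itself, it called 2381 genes (12.4%), and DESeq2 without the block called 1556 (8.09%). Clone 3 stood apart: without it the unblocked test called 3981 genes (21.7%). Both the unblocked value and, where the call differs, the blocked value are therefore given below. Reads of bulk cultures cannot tell fewer cells of a kind from less RNA per cell.

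Trp53inp1, Sesn2 and Zmat3 rose with DOX when each clone was compared with itself. Trp53inp1 encodes a stress protein that acts as a p53 cofactor and in autophagy, Sesn2 a sestrin that restrains mTORC1, and Zmat3 an RNA-binding protein. Trp53 mRNA was nearly level, and Aen was lower with DOX in every clone. No gene of the 10 passed the unblocked edgeR test over all genes, which called 0.0624% of genes. With the clone block 3 of 10 passed, all higher, beside 12.4% of all genes in either direction and 7.05% called higher. Trp53inp1, among these 3, was made the question with its rise in these libraries already known, which favours a higher count. The median log2 fold change of the 10 genes was 0.26 in the unblocked fit, beside 0.013 over all genes tested.

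**Figure D1:**
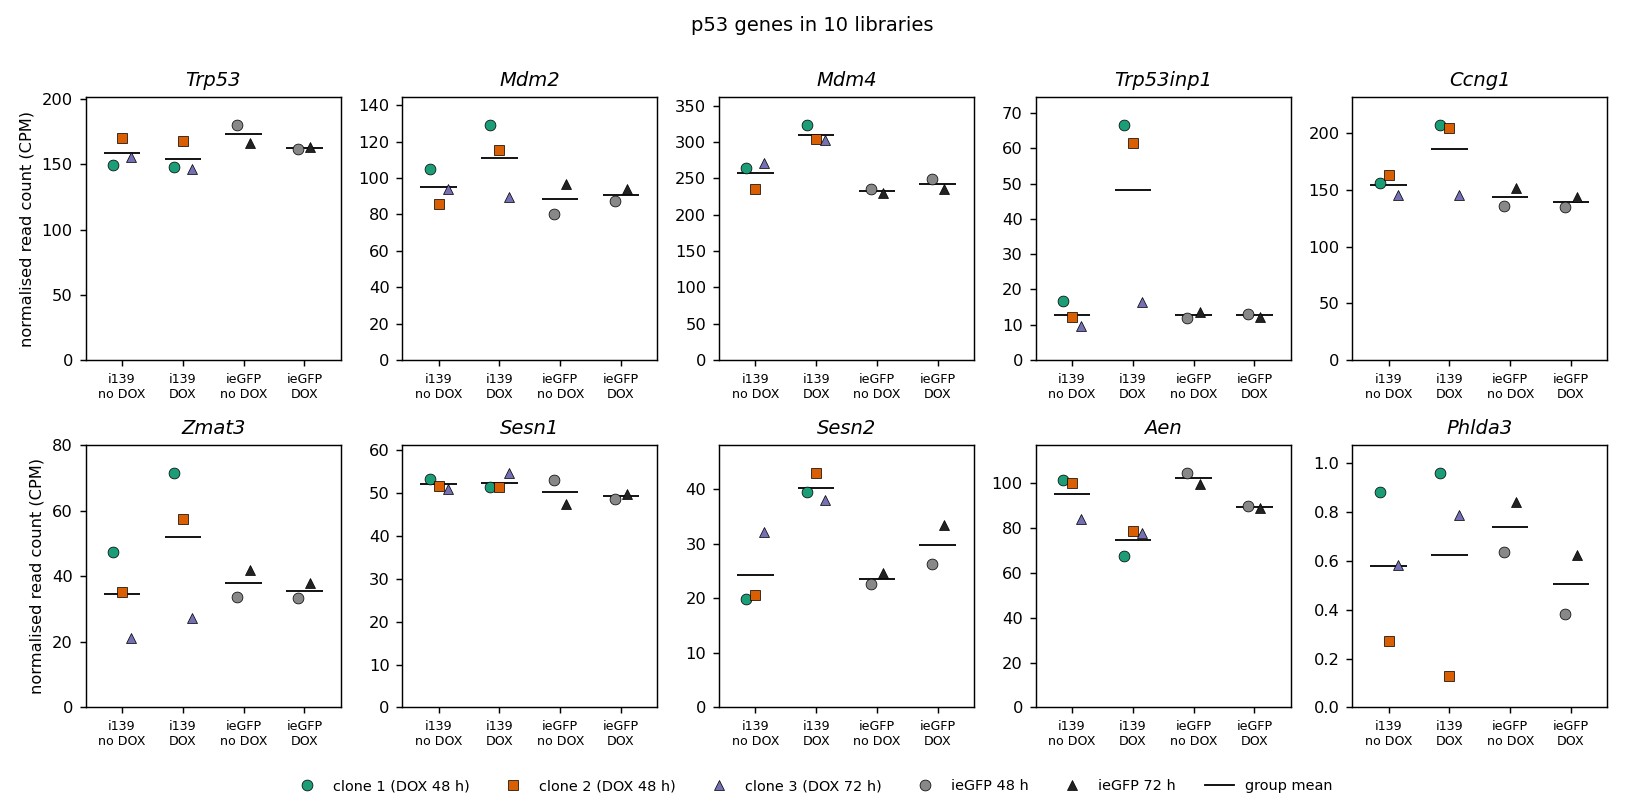
Normalised read count (CPM, linear axis from 0) of each of the 10 p53 genes in the 10 libraries, grouped by construct and DOX, with the group mean as a line and symbols for clones and times. The DOX-treated libraries of clones 1 and 2 reach 66.6 and 61.5 CPM for Trp53inp1, whereas clone 3 stays at 16.6 CPM and the 4 MLL-AF9-ieGFP libraries lie between 11.9 and 13.5 CPM.

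Trp53 (chr11:69580359-69591873, plus strand) had 149.6, 170.4 and 155 CPM in clones 1, 2 and 3 without DOX. With DOX it had 148, 168 and 146 CPM, and the groups overlapped. The log2 fold change was -0.03 ± 0.10 (SE, n = 3 clones a group, edgeR adjusted p = 0.905), and each clone changed by 0.09 or less on the log2 scale. In MLL-AF9-ieGFP it had 179.9 and 167 CPM without DOX and 162 and 163 CPM with DOX, at 48 h and 72 h.

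Mdm2 (chr10:117688875-117710758, minus strand) had 105, 85.9 and 93.9 CPM in clones 1, 2 and 3 without DOX, and 129, 115 and 89.5 CPM with DOX. It was thus higher with DOX in clones 1 and 2 and lower in clone 3, and the groups overlapped. The log2 fold change was 0.24 ± 0.15 (SE, edgeR adjusted p = 0.395, and 0.21 with the clone block). Mdm2 is the feedback target of p53, and it did not pass either test. Its MLL-AF9-ieGFP libraries held 80.2 and 97.0 CPM without DOX, and 87.2 and 93.7 CPM with DOX.

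Mdm4 (chr1:132959484-133030561, minus strand), the relative of Mdm2 that binds p53 without degrading it, had 265, 235 and 271 CPM without DOX. With DOX it had 323, 304 and 302 CPM, so every DOX-treated library lay above every untreated one. Its log2 fold change was 0.28 ± 0.10 (SE, edgeR adjusted p = 0.164, and 0.0612 with the clone block), which passed neither test. Without clone 3 it was 0.35 with an edgeR adjusted p of 0.0404, and it did not pass without clone 1 (edgeR adjusted p = 0.7) or without clone 2 (0.742). In MLL-AF9-ieGFP it had 236 and 230.0 CPM without DOX and 249 and 236 CPM with DOX.

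Trp53inp1 (chr4:11156431-11174379, plus strand) had 16.6, 12.3 and 9.76 CPM in clones 1, 2 and 3 without DOX. With DOX it had 66.6, 61.5 and 16.6 CPM. Clones 1 and 2 were far above every untreated library, whereas the treated library of clone 3 was level with untreated clone 1, so the groups just overlapped. The log2 changes within clones were 2.00, 2.32 and 0.76. Over the 3 clones the log2 fold change was 1.92 ± 0.47 (SE, edgeR adjusted p = 0.114), which did not pass without the block. With the clone block it was 1.74 ± 0.28 (SE) and passed (edgeR adjusted p = 0.0238), as it did in DESeq2 without the block (adjusted p = 0.0232). Without clone 3 it was 2.17 ± 0.15 (SE, edgeR adjusted p = 0.000223), whereas it did not pass without clone 1 (1.83, edgeR adjusted p = 0.679) or without clone 2 (1.67, edgeR adjusted p = 0.742). In MLL-AF9-ieGFP it had 11.9 and 13.5 CPM without DOX, and 12.98 and 12.2 CPM with DOX.

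Among the targets, Ccng1 (chr11:40748552-40755311, minus strand), which encodes cyclin G1 and acts in the Mdm2 feedback loop, had 156, 163 and 145 CPM without DOX. With DOX it had 207, 205 and 146 CPM, so that clones 1 and 2 were higher and clone 3 was level. Its log2 fold change was 0.28 ± 0.15 (SE, edgeR adjusted p = 0.317, and 0.130 with the clone block). Without clone 3 it was 0.39 (edgeR adjusted p = 0.0172), and it did not pass without clone 1 (edgeR adjusted p = 0.813) or without clone 2 (0.767). In MLL-AF9-ieGFP it had 135 and 151 CPM without DOX and 135 and 144 CPM with DOX.

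Zmat3 (chr3:32334792-32366014, minus strand) had 47.3, 35.2 and 21.2 CPM in clones 1, 2 and 3 without DOX, and 71.6, 57.4 and 27.4 CPM with DOX. Untreated clones 1 and 3 differed by more than DOX changed either of them, and the groups overlapped, yet each clone was higher with DOX (0.60, 0.70 and 0.37 on the log2 scale). Its log2 fold change was 0.61 ± 0.38 (SE, edgeR adjusted p = 0.395). Blocked by clone it was 0.57 ± 0.10 (SE) and passed (edgeR adjusted p = 0.0250). In MLL-AF9-ieGFP the gene had 33.7 and 42.0 CPM without DOX and 33.5 and 37.9 CPM with DOX.

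The sestrins encode leucine-sensing proteins that restrain mTORC1 under stress. Sesn2 (chr4:132492032-132510501, minus strand) had 19.9, 20.7 and 32.1 CPM without DOX and 39.5, 43.0 and 38.02 CPM with DOX. All treated libraries lay above all untreated ones, with clone 3 high already without DOX. The log2 fold change was 0.74 ± 0.19 (SE, edgeR adjusted p = 0.118), and with the clone block 0.78 ± 0.17 (SE, edgeR adjusted p = 0.0339). In MLL-AF9-ieGFP it had 22.6 and 24.6 CPM without DOX and 26.3 and 33.4 CPM with DOX, a log2 fold change of 0.34 ± 0.22 (SE, edgeR adjusted p = 1). A predicted gene, Gm12981, covers 33.0% of the Sesn2 gene body on the same strand and shares none of its exon bases. Genes lying wholly inside another gene mostly had 0 counts in this table even without shared exon bases, so reads of Sesn2 in that stretch may not have been counted.

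Sesn1 (chr10:41809935-41908424, plus strand) had 53.3, 51.7 and 50.9 CPM without DOX and 51.2, 51.3 and 54.7 CPM with DOX. The groups overlapped, and the 6 libraries lay between 50.9 and 54.7 CPM. Its log2 fold change was 0.03 ± 0.09 (SE, edgeR adjusted p = 0.907). In MLL-AF9-ieGFP it ran from 47.3 to 53.05 CPM over the 4 libraries.

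Aen (chr7:78895854-78911209, plus strand), the apoptosis-enhancing nuclease induced by p53, had 101, 100.3 and 84.1 CPM without DOX. With DOX it had 67.3, 78.6 and 77.7 CPM, so every treated library lay below every untreated one. Its log2 fold change was -0.34 ± 0.11 (SE, edgeR adjusted p = 0.160, and 0.0749 with the clone block), and without clone 3 it was -0.45 (edgeR adjusted p = 0.0166). Aen did not pass without clone 1 (edgeR adjusted p = 0.713) or without clone 2 (0.742). In MLL-AF9-ieGFP it had 105 and 99.6 CPM without DOX and 90.0 and 88.8 CPM with DOX, which is the same direction.

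Phlda3 (chr1:135766119-135769136, plus strand), whose protein competes with Akt for membrane lipids, was close to the lower end of what these libraries can show. It had 43, 12 and 23 counts without DOX and 46, 5 and 31 counts with DOX, or 0.881, 0.274 and 0.583 CPM against 0.961, 0.127 and 0.787 CPM. The clones disagreed in direction, and the log2 fold change of 0.13 ± 0.65 (SE, edgeR adjusted p = 0.937) leaves its change poorly determined.

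Mdm4 and Sesn2 were thus the 2 of 10 genes whose treated MLL-AF9-i139 libraries all lay above the untreated ones, and Aen was the 1 that lay below, beside 12.0% and 12.8% of all genes tested. Across clones the 10 genes had median log2 changes of 0.29, 0.35 and 0.13 for clones 1, 2 and 3. Over all genes tested these medians were -0.02, 0.01 and 0.00.

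**Figure D2:**
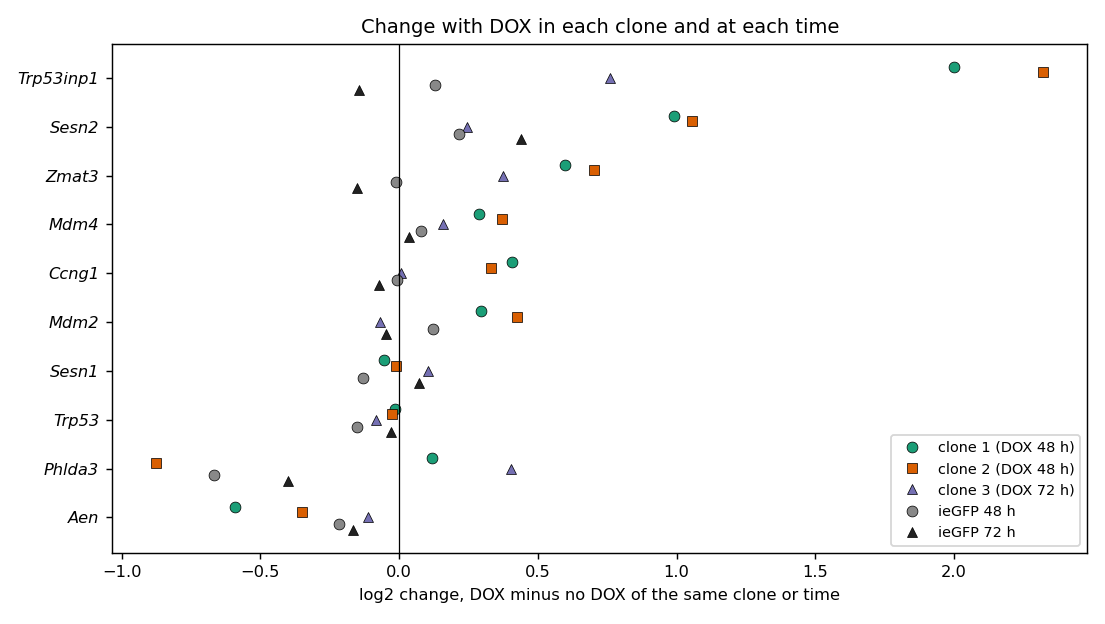
Change with DOX (log2 CPM with DOX minus log2 CPM without, prior count 2) of each gene in the 3 MLL-AF9-i139 clones and at the 2 MLL-AF9-ieGFP times, ordered by the mean over clones. Trp53inp1 changed most in clones 1 and 2 (2.00 and 2.32), and in clone 3 by 0.76, with 0.13 and -0.15 in MLL-AF9-ieGFP.

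Leaving clone 3 out changed how many of the genes were called. Without it 6 of 10 passed the unblocked edgeR test, beside 21.7% of all genes: Trp53inp1, Sesn2, Zmat3, Mdm4 and Ccng1 were higher and Aen was lower. The log2 fold change of Sesn2 was then 1.04 ± 0.10 (SE, edgeR adjusted p = 0.000662) and that of Zmat3 0.66 ± 0.16 (SE, edgeR adjusted p = 0.0240). Mdm2 was at 0.38 ± 0.12 (SE) without passing (edgeR adjusted p = 0.0609). With the clone block and without clone 3, Mdm2 passed as well, which made 7 of 10 beside 43.4% of all genes. Trp53, Sesn1 and Phlda3 passed in no fit. The unblocked test called 0 of 10 without clone 1 and 0 of 10 without clone 2, beside 0.00555% and 0% of all genes.

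**Figure D3:**
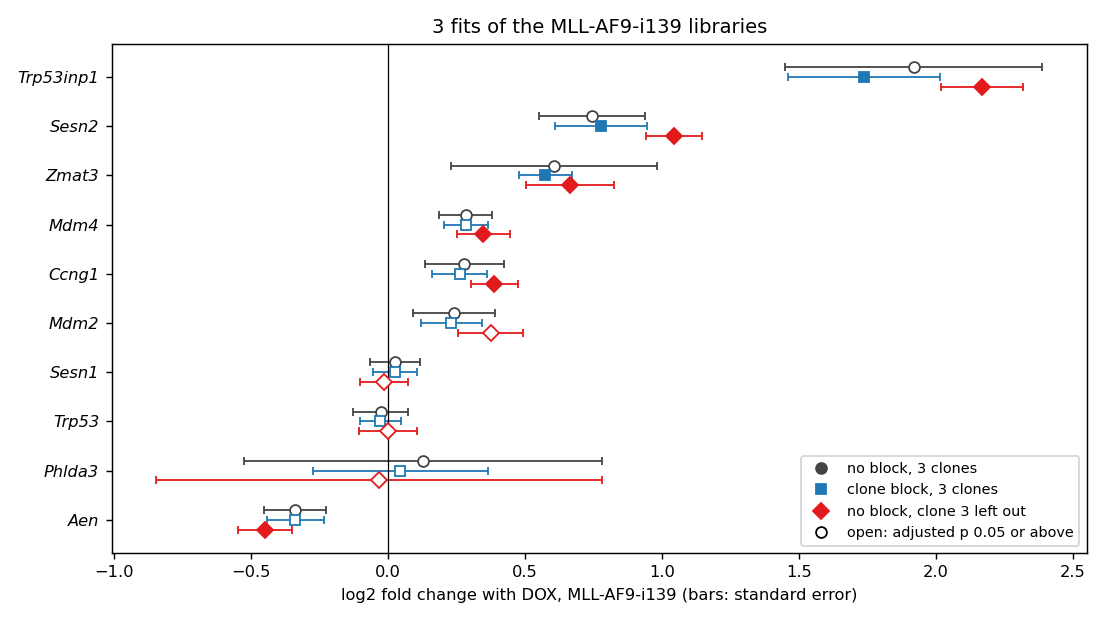
Log2 fold change with DOX in MLL-AF9-i139 (bars: standard error) of each gene in the fit without a block, the fit with the clone block, and the fit without clone 3, with filled symbols for an adjusted p under 0.05. Filled symbols number 0, 3 and 6 of 10 in the 3 fits, and Trp53inp1 is the highest in each.

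Trp53inp1 was compared with each other gene in the same libraries, as the log2 ratio of the pair, to ask whether it changed by more. The ratio was higher with DOX for all 9 other genes, by 0.93 against Sesn2, 1.14 against Zmat3, 1.48 against Mdm2 and 2.05 against Aen. Within each clone every one of these ratios was higher with DOX, by 1.01 to 2.59 in clone 1, 1.27 to 3.20 in clone 2 and 0.36 to 0.87 in clone 3. The two-sided exact permutation test over the 6 libraries gave p from 0.10 to 0.30 (0.180 to 0.300 adjusted over 9 comparisons). It does not use the pairing by clone and cannot go below 0.10, so it decides nothing on whether Trp53inp1 differs from the others. Trp53inp1 was also made the question with its rise in these libraries already known, which favours higher ratios. In clone 3 the ratio to Sesn2 changed by 0.52, and in MLL-AF9-ieGFP the same ratio changed by -0.09 and -0.59 at the earlier and the later time.

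Against the control construct, DOX called 0 of the 10 genes in MLL-AF9-ieGFP by edgeR, beside 0 of 20269 genes tested (259, or 1.28%, at an unadjusted p under 0.05, none of them among the 10, and 1 gene by DESeq2). The difference between constructs, the interaction of DOX and construct, also passed for 0 of 10 genes, beside 0.00493% of all genes (9.17% at an unadjusted p under 0.05). For Trp53inp1 the difference was 1.91 ± 0.64 (SE, edgeR adjusted p = 0.527, unadjusted p = 0.0123), and for Sesn2 0.39 ± 0.28 (SE, edgeR adjusted p = 0.667). Without clone 3 it passed for 3 of 10 genes, beside 10.2% of all genes: Trp53inp1 at 2.19 (edgeR adjusted p = 0.000174), Sesn2 at 0.72 (edgeR adjusted p = 0.0293) and Ccng1 at 0.44 (edgeR adjusted p = 0.0496). With the block of clone or time it again passed for 0 of 10 genes, beside 0.187% of all genes, with Trp53inp1 at 1.73 (edgeR adjusted p = 0.0856), and with the block and without clone 3 for 7, beside 28.4%. For Aen the difference was -0.16 ± 0.16 (SE, edgeR adjusted p = 0.750), with both constructs lower on DOX. The replicates of MLL-AF9-ieGFP are 48 h and 72 h cultures of 1 clone, so these tests do not measure the spread between control clones. Without clone 3, the treated MLL-AF9-i139 libraries were all at 48 h while the control still held both times.

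Levels can be ordered across genes only per length. Per kilobase of merged exons, Ccng1 was highest without DOX in MLL-AF9-i139 (44.0 ± 2.55 CPM per kilobase, SD, n = 3 clones), then Trp53 (39.2 ± 2.66), and these 2 overlapped. Mdm2 (18.7 ± 1.90), Mdm4 (17.4 ± 1.30) and Aen (16.4 ± 1.68) overlapped with each other. Sesn1 followed (13.04 ± 0.308), then Sesn2 (6.96 ± 1.97), each apart from its neighbours. Zmat3 (3.02 ± 1.15) and Trp53inp1 (1.99 ± 0.536) overlapped, and Phlda3 was lowest (0.372 ± 0.195). With DOX, Trp53inp1 reached 7.45 ± 4.25 CPM per kilobase and overlapped Zmat3 (4.56 ± 1.97), with Sesn2 at 11.6 ± 0.735. This order depends on the length used. With the longest transcript Trp53 (48.4) stood above Ccng1 (44.0), the 2 still overlapping, and Mdm4 (36.2) and Mdm2 (30.2) stood apart from Aen (19.2). Per kilobase of gene body Aen (6.21) lay above Mdm2 (4.34) and Mdm4 (3.61) without overlap, and Sesn1 (0.527) fell to the second lowest place, since its gene spans 98490 bases. Whether reads were counted over exons or over whole gene bodies is not given in the sources used here, so none of these orders is preferred.

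The wider set of p53 targets was read from a list of 50 further direct targets, of which 45 were tested. In the unblocked edgeR test 0 of 45 passed, and their median log2 fold change was 0.19. With the clone block 8 were called higher and 1 lower, beside 7.05% and 5.33% of all genes. Those called higher were Cdkn1a, the p21 inhibitor of cyclin-dependent kinases, Btg2, an antiproliferative factor, Ddit4, an inhibitor of mTORC1, the noncoding RNA Trp53cor1, the reductase gene Dcxr, the spindle gene Psrc1, the 14-3-3 gene Sfn and Apaf1 of the apoptosome. Steap3, an iron reductase, was called lower. The authors had already reported Cdkn1a and Btg2 as higher with DOX in these clones, and the list was chosen with earlier results known. Without clone 3, the unblocked test called 11 higher and 1 lower, beside 11.6% and 10.1% of all genes.

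Cdkn1a had 52.2, 43.4 and 43.0 CPM in clones 1, 2 and 3 without DOX and 191, 179 and 63.1 CPM with DOX, with all treated libraries above all untreated ones. Its log2 fold change was 1.66 ± 0.36 (SE, edgeR adjusted p = 0.1003, and 0.0271 with the clone block). The 4 MLL-AF9-ieGFP libraries held 42.8 to 45.7 CPM. Btg2 had 6.97, 7.20 and 4.41 CPM without DOX and 24.4, 24.2 and 6.83 CPM with DOX, a log2 fold change of 1.59 ± 0.45 (SE, edgeR adjusted p = 0.128, and 0.0245 with the clone block). Ddit4 had 17.1, 16.6 and 15.7 CPM without DOX and 73.1, 69.3 and 17.7 CPM with DOX, a log2 fold change of 1.71 ± 0.45 (SE, edgeR adjusted p = 0.120, and 0.0440 with the clone block). Like Trp53inp1, these 3 genes were higher mainly in the clones treated for 48 h.

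Of the 10 further targets set for description, the other 8 were given whatever their values. Log2 fold changes in the unblocked fit were 0.20 for Bax, 0.19 for Bbc3 (Puma), -0.30 for Pmaip1 (Noxa) and 0.50 for the death receptor gene Fas. They were -0.20 for Gadd45a, 0.27 for the damage sensor gene Ddb2, 0.04 for the ribonucleotide reductase gene Rrm2b and -0.64 for the kinase gene Plk2. None of these 8 passed with or without the block (edgeR adjusted p from 0.274 to 0.926 without it, and from 0.154 to 0.806 with it). Fas passed without clone 3 (edgeR adjusted p = 0.0450) and did not pass without clone 1 or without clone 2. Triap1, an apoptosis inhibitor gene, had a log2 fold change of -0.34 and did not pass (edgeR adjusted p = 0.198, and 0.0636 with the clone block). Bax held 40.9, 45.5 and 39.2 CPM without DOX and 44.8, 54.8 and 43.8 CPM with DOX, and Plk2 had 6 counts or fewer in every library. Gadd45a, Ddb2 and Trp53cor1 share 19.1%, 23.8% and 44.1% of their exon bases with another annotated gene, so their counts are uncertain. For Cdkn1a the share is 7.68% and for Bax 12.2%.

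**Figure D4:**
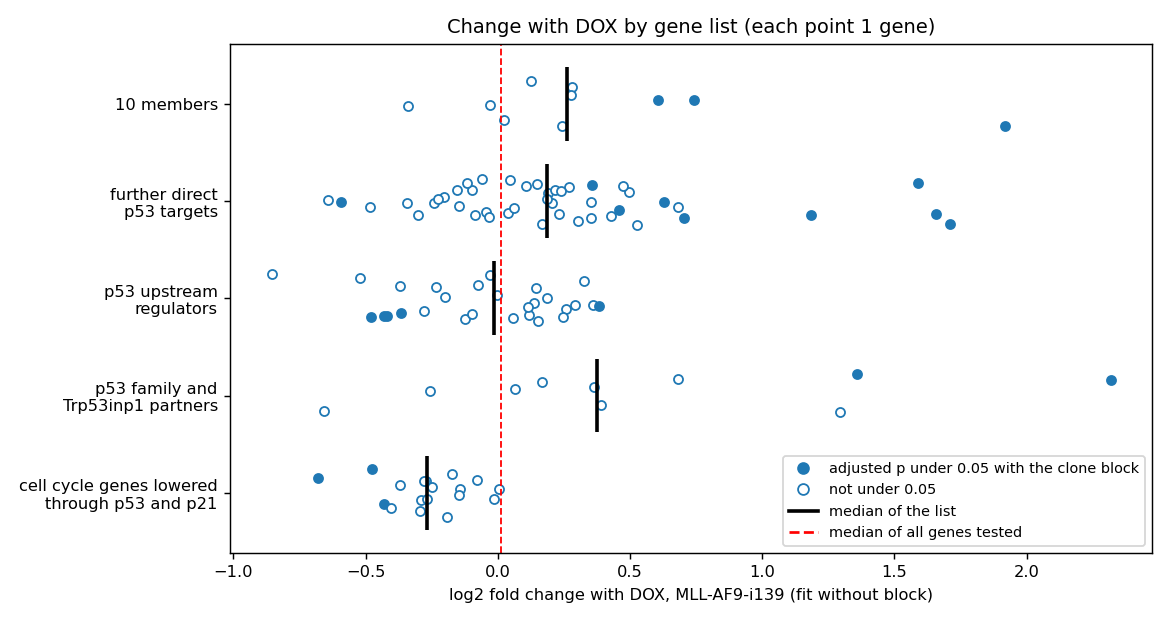
Log2 fold change with DOX in MLL-AF9-i139 (fit without a block) of the genes tested in each list, 1 point a gene, filled where the adjusted p is under 0.05 with the clone block, with the list median as a black bar and the median of all genes as a dashed line. Medians run from -0.27 for the cell cycle genes to 0.38 for the p53 family and Trp53inp1 partners.

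Of 29 upstream regulators of p53, 28 were tested and their median log2 fold change was -0.02. With the clone block the methyltransferase gene Setd7 was called higher (0.38 ± 0.09, SE, edgeR adjusted p = 0.0380). The damage kinase genes Atm, Atr and Chek1 and the deacetylase gene Sirt1 were called lower, beside 5.33% of all genes. Chek1 had 50.4, 44.6 and 43.4 CPM without DOX and 32.0, 29.7 and 36.8 CPM with DOX, with no overlap. Atm had 87.8, 84.0 and 72.6 CPM without DOX and 59.9, 58.2 and 61.6 CPM with DOX, also with no overlap. The acetyltransferase gene Ep300 (0.36) and the p53-binding gene Trp53bp2 (0.33) had positive log2 fold changes and did not pass with the 3 clones, with or without the block. Cdkn2a, which encodes the Mdm2 inhibitor Arf as well as p16, had 26.6, 21.04 and 5.65 CPM without DOX and 16.5, 13.6 and 6.63 CPM with DOX, and it did not pass with the 3 clones (edgeR adjusted p = 0.615, and 0.210 with the clone block).

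Of 11 relatives and partners, 10 were tested, with a median log2 fold change of 0.38. Blocked by clone, 2 of the 10 were called higher, beside 7.05% of all genes. Sesn3, the remaining sestrin, had 1.11, 0.365 and 0.532 CPM without DOX and 6.10, 2.47 and 1.40 CPM with DOX, a log2 fold change of 2.32 ± 0.61 (SE, edgeR adjusted p = 0.120, and 0.0173 with the clone block). Trp53inp2, the paralog of Trp53inp1 in autophagy, had 10.9, 9.92 and 9.10 CPM without DOX and 36.0, 30.2 and 9.73 CPM with DOX (edgeR adjusted p = 0.136, and 0.0482 with the clone block). Gabarap, an autophagosome protein gene, had a log2 fold change of 0.68 ± 0.24 (SE) without passing (edgeR adjusted p = 0.177, and 0.0521 with the clone block). Mdm1, a gene found on the same amplified mouse segment as Mdm2, had the lowest value among the well expressed genes of this list (-0.26, edgeR adjusted p = 0.259). Sesn2 and Sesn3 were thus higher with DOX in MLL-AF9-i139 while Sesn1 was level. In MLL-AF9-ieGFP, Sesn2 changed by 0.22 and 0.44 on the log2 scale at 48 h and 72 h, beside 0.24 in clone 3 of MLL-AF9-i139. Sesn3 changed there by -0.57 and -0.35, at 0.218 to 0.438 CPM.

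The 18 cell cycle genes that p53 and p21 lower were all tested. In the unblocked fit 17 of 18 had a negative log2 fold change, with a median of -0.27, and 0 of 18 passed. In the blocked fit 3 were called lower, Ccna2 and Birc5 among them, beside 5.33% of all genes, and without clone 3 the unblocked test called 10 lower, beside 10.1%. Ccna2, cyclin A2, had 134, 146 and 151 CPM without DOX and 87.8, 95.1 and 124 CPM with DOX. Mki67, the proliferation marker, had 734, 719 and 773 CPM without DOX and 759, 772 and 684 CPM with DOX, and did not pass (edgeR adjusted p = 0.981). In all, 8 of 18 genes had treated libraries wholly below the untreated ones, beside 12.8% of all genes.

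The genes whose log2 CPM followed Trp53inp1 most closely over the 10 libraries, of 10660 genes with an average log2 CPM of at least 1, included Cdkn1a (Pearson r = 0.991), the aldehyde dehydrogenase gene Aldh3a2 (0.991), the glutathione transferase gene Mgst1 (0.991) and the ubiquitin ligase gene Rnf167 (0.990). The 10 points come from few clones and share the same treated libraries of clones 1 and 2, and r is a description. Of the p53 genes, Ccng1 had r = 0.92, Mdm2 0.87, Zmat3 0.82, Mdm4 0.78 and Sesn2 0.63. Sesn1 had 0.11, Trp53 -0.26 and Aen -0.71.

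Promoter windows from 250 bases before to 50 after annotated starts (RefSeq, GRCm38.p6) were searched on both strands for the consensus p53 decamer, the 10-base unit of a p53 response element. Of 32851 windows 8.36% held a decamer, and of 27025 genes 9.55% did in at least 1 window. Of the 10 genes 8 matched the promoter table, and Mdm2, Ccng1, Sesn1, Aen and Trp53 held a decamer while Mdm4, Sesn2 and Phlda3 did not. Trp53inp1 and Zmat3 were not matched. A pair of decamers with at most 13 bases between them was found in 0.0731% of windows and in none of these 8 genes, and Cdkn1a held such a pair. Excerpts of the windows are shown for Cdkn1a (chr17:29090891-29090952, plus strand), Mdm2 (chr10:117710920-117710959, minus strand) and Ccng1 (chr11:40755447-40755486, minus strand), with the decamers in capitals. They set a target that was higher in all clones beside Mdm2 and Ccng1 of the feedback loop. A window at another annotated start of Cdkn1a held no decamer.
Cdkn1a: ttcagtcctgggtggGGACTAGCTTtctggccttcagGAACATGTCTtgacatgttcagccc
Mdm2: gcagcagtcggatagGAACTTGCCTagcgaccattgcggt
Ccng1: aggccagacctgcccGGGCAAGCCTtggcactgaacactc
Binding of p53 was not measured, and a match does not show a site in use. Stretches that differ from the consensus decamer were not marked, so the marked pair need not be the element that p53 binds. Sequence outside the windows was not searched, so a gene without a pair here may hold one elsewhere.

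Markers of the labelled cell type and of others were summed in each library. The summed level of 11 myeloid progenitor markers was 2384 to 3482 CPM without DOX and 3543 to 5282 CPM with DOX in MLL-AF9-i139. In MLL-AF9-ieGFP it was 2464 to 2978 CPM without DOX and 2789 to 3751 CPM with DOX. Mpo was higher with DOX there as well, by 0.43 and 0.53 on the log2 scale at 48 h and 72 h. Of these 11, Elane and Mpo had the highest means in MLL-AF9-i139 (1470 and 536 CPM without DOX, 1532 and 1406 CPM with DOX). Elane was lower with DOX in clones 1 and 2 and higher in clone 3 (log2 changes of -0.26, -0.38 and 0.41), whereas Mpo was higher in each clone. Hoxa9 (-0.49, -0.24 and -0.36) and Meis1 (-0.31, -0.02 and -0.20) had negative log2 changes in clones 1, 2 and 3. Kit was near level (means of 143 and 144 CPM). Fcgr3, Fcgr2b, Spi1, Ptprc and Cebpa had positive mean changes. Itgam had 6 counts in all 10 libraries, and 99.9% of its gene body lies in another annotated gene. The 10 mature neutrophil markers summed to 130.3 to 223 CPM without DOX and 193 to 361 CPM with DOX in MLL-AF9-i139. In MLL-AF9-ieGFP they summed to 296 to 378 CPM without DOX and 284 to 399 CPM with DOX. Among them Cxcr2 had the largest mean log2 change over the clones (3.67). It had 1.35, 0.889 and 0.913 CPM without DOX and 41.6, 22.8 and 2.67 CPM with DOX. As for Trp53inp1, its DOX-treated libraries were highest in clone 1 and lowest in clone 3. S100a9 was level (mean log2 change -0.03), and Mmp8, Mmp9 and Retnlg were lower at few counts (-0.44, -0.28 and -0.60). The other markers of this list had positive mean changes. The 6 macrophage markers summed to 8.04 to 11.05 CPM without DOX and 9.55 to 27.4 CPM with DOX, with C1qa at 0. Sums of T and B cell, erythroid and megakaryocyte, and stromal markers reached at most 4.16 CPM in any MLL-AF9-i139 library, with Hbb-bs at 0. The blocked fit called 5 of 10 myeloid progenitor markers tested (4 higher), 2 of 8 neutrophil markers (both higher, Cxcr2 and Ngp) and 1 of 4 macrophage markers (higher), beside 12.4% of all genes in either direction and 7.05% higher. The part of these marker changes in the results for the p53 genes was not tested.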

How the data were processed

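Total RNA depleted of ribosomal RNA was sequenced from 10 libraries. Per the labels and methods, the authors aligned reads with STAR 2.5.3e to GRCm38 and made raw read counts per gene with featureCounts 1.6.0 and GENCODE M15, after FastQC 0.11.8. Their strand setting and the feature counted (exons or gene bodies) are not given in the sources used here. The deposited counts were used as they stand, and 14 columns of other samples were not used. Symbols and positions came from GENCODE M21, which matched 52403 IDs. Of 677 protein-coding genes inside another gene without shared exon bases 98.1% had 0 counts, against 24.9% of 11686 that overlap no gene. Reads in overlapping gene bodies may therefore have been dropped, and counts of overlapped genes may be incomplete.

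Genes that reached 10 counts, summed over the fitted libraries, were tested with edgeR 4.0.16 (R 4.3.3, limma 3.58.1; TMM, quasi-likelihood, Benjamini-Hochberg over all genes, threshold 0.05). MLL-AF9-i139 was fitted on its 6 libraries, MLL-AF9-ieGFP and the interaction on all 10. SE is the log2 fold change over the square root of F. Log2 changes within clones used a prior count of 2. Alternatives included DESeq2 1.42.0 and the clone as a block. Libraries of the same clone pair by design, and their deviations from the group means correlated (r = 0.381, 0.288 and 0.414, against -0.32 to -0.04 between clones). Scripts were tested on simulated data. Python 3.11.15 with numpy 2.4.6, pandas 2.3.3, scipy 1.17.1 and matplotlib 3.10.9 was used. Replicate libraries differed by more than sampling noise (chi-square per degree of freedom 13.5 to 112).

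Genes and lists were chosen with earlier results of these data known. Named were the 10 genes, 10 set targets, up to 3 genes with the largest change each way per list at an average log2 CPM of at least 1, and the 5 closest to Trp53inp1 in pattern. Some genes that this rule names are not reported here. Trp53cor1, Dcxr, Psrc1, Sfn, Apaf1, Atr, Sirt1, Cxcr2 and Ngp were named after their values were seen.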

Additional observations from a re-analysis of the deposited data

Results flagged for a closer look

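For Zmat3 all 3 MLL-AF9-i139 clones were higher with DOX and both MLL-AF9-ieGFP times were lower, and the change differed between constructs by 0.68 ± 0.52 (SE) on the log2 scale without passing the interaction test (edgeR adjusted p = 0.687, and 0.0866 with the block of clone or time). For Ccng1 the same pattern of signs gave a difference of 0.31 ± 0.20 (SE), which did not pass either (edgeR adjusted p = 0.650, and 0.278 with the block). The smallest of these changes, 0.01 in clone 3 for Ccng1 and -0.01 at 48 h for both genes, are close to 0.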

How the results depend on the processing

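Without the clone block 12 genes (0.0624%) were called in MLL-AF9-i139. The count was 2381 (12.4%) with the clone as a replicate block, 1556 (8.09%) with DESeq2 and 562 (2.17%) without a filter. It was 1234 (6.09%) with all 10 libraries in 1 fit, and 6 (0.04%) with at least 10 counts in at least 3 libraries. Leaving out 1 clone gave 0 to 3981 genes (at most 21.7%, without clone 3). With the block it gave 324 (1.8%, without clone 1), 580 (3.17%, without clone 2) and 7974 (43.4%, without clone 3). The counts for the p53 genes and lists that follow stand beside these shares of all genes in the same fits. Of the 10 p53 genes, 0 were called in the unblocked fit, 3 with the block, 2 with DESeq2, 2 without a filter and 2 with all 10 libraries. Leaving out 1 clone gave 0 to 6 of them, and with the block 1, 1 and 7. The further targets had 9 calls with the block, 6 with DESeq2, 3 without a filter and 4 with all 10 libraries, 0 to 12 without 1 clone, and 3, 4 and 27 with the block and without clone 1, 2 or 3. The cell cycle genes had 3 calls with the block, 2 with DESeq2, 1 without a filter, 3 with all 10 libraries, 0 to 10 without 1 clone, and 15 with the block and without clone 3. The upstream regulators had 5 calls with the block, 3 with DESeq2, 2 with all 10 libraries, 0 to 9 without 1 clone, and 20 with the block and without clone 3. The interaction called 0 to 3 of the 10 p53 genes without 1 clone (beside 10.2% of all genes without clone 3), and 7 with the block and without clone 3 (beside 28.4%).

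The log2 fold change of Trp53inp1 stayed positive in every alternative. It passed at 1.74 with the block, 1.92 with DESeq2, 1.93 without a filter and 1.90 with all 10 libraries. It did not pass with RLE scaling (edgeR adjusted p = 0.114), with at least 10 counts in at least 3 libraries (0.106), without clone 1 (0.679) or without clone 2 (0.742). Without 1 clone it ran from 1.67 to 2.17, and with the block it was 1.56, 1.41 and 2.18 without clone 1, 2 and 3. Changes near 0 turned sign. In MLL-AF9-i139, without 1 clone Sesn1 ran from -0.0146 (without clone 3, also -0.0146 with the block) to 0.0472, and Phlda3 from -0.0336 (without clone 3) to 0.263, with -0.0707 under the block without clone 1 and -0.136 without clone 3. In MLL-AF9-ieGFP, Mdm2 ran from -0.0635 (without 48 h) to 0.125, Sesn1 from -0.124 to 0.0575 (without 48 h) and Trp53inp1 from -0.161 to 0.135 (without 72 h), and the Sesn1 interaction from -0.0291 (without 48 h) to 0.136. Of 380 values for single p53 genes, 337 kept direction and side of the threshold, 34 newly passed and 9 turned sign. The cause of these differences was not tested. The fits that leave out a clone under the block, and the gene body length, were added after seeing the data. The counts of Phlda3 (5 to 46 a library in MLL-AF9-i139) limit that gene, and with 3 clones the exact test cannot go below 0.10.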
